A study of Mus musculus with 10 samples.

Results

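The calmodulin and CaM kinase genes were examined in the hippocampus of genetically identical mice that differed in open field exploration. A list of 9 genes was taken: Calm2, Calm3, Camk2a, Camk2b, Camk2d, Camk2g, Camk4, Camk1d and Camkk2. Every probe set annotated with exactly 1 of these symbols was kept, without regard to its signal, which gave 28 of the 45037 probe sets on the array that were not controls. No probe set was matched to Calm2 or Calm3 in the annotation used here, so both calmodulin genes were not analysed here and the 28 probe sets represent 7 kinase genes. Camk2d had 7 probe sets, Camk2a 6, Camk4 5, Camkk2 4, Camk1d 3, Camk2g 2 and Camk2b 1.

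The groups were 5 High Exploration and 5 Low Exploration mice, all inbred Balb c/J females from Jackson that shared a day of birth, each with its own array of whole hippocampus. They were chosen from the ends of a ranking by a composite score over repeated open field tests, and the comparison asks how hippocampal expression relates to this stable difference in behaviour. Age at tissue collection is not given in the sources used here. Groups and tissue follow the labels, since the design text deposited with the series is about handled mice and the CA1 region.

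Calmodulin is the calcium sensor of the cell. When calcium enters a neuron, calcium-loaded calmodulin binds and activates the CaM kinases. CaMKK2 is the upstream kinase, which phosphorylates and so activates CaMKI and CaMKIV. CaMKI acts in the cytoplasm, including in growing neurites, and CaMKIV acts in the nucleus, where it phosphorylates the transcription factor CREB. CaMKII is built from alpha, beta, gamma and delta subunits, can phosphorylate itself and stay active after calcium has fallen, and is among the most abundant proteins of excitatory synapses in the hippocampus, where it is required for long-term potentiation.

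Values are log2 of the deposited signal, and each difference is the mean of High Exploration minus the mean of Low Exploration on that scale, so that a difference of 1 is a doubling. Several array-wide readings moved with the groups. The poly-A spike-in controls, added before amplification, averaged 12.49 ± 0.47 on High against 14.12 ± 0.44 on Low Exploration arrays (SD, n = 5 each) without overlap, at the smallest p that 5 against 5 arrays allow (exact permutation p = 0.00794). The median log2 signal was 7.16 to 7.68 on High and 7.83 to 8.09 on Low Exploration arrays (exact permutation p = 0.00794), and the hybridisation controls averaged 13.63 ± 0.31 and 14.24 ± 0.29 (SD, n = 5 each, exact permutation p = 0.0159). The 3′ over 5′ log2 ratio of Gapdh, a reading of RNA integrity and amplification, was 4.72 ± 0.48 against 3.72 ± 0.23 (SD, n = 5 each, exact permutation p = 0.0159). For actin this ratio read 5.30 ± 0.58 on High and 4.97 ± 0.75 on Low Exploration arrays (exact permutation p = 0.484, SD, n = 5 each). Scaling the arrays to equal hybridisation controls raised every difference by about 0.61. The part of the poly-A controls and of the Gapdh ratio in the results was not tested. No scaling to the poly-A controls, which differed by −1.62, was run. All 7 neuron markers had a probe set above the filter described next, and 5 of the 7 were higher in High Exploration. Among 11500 genes, each by its brightest probe set above that filter, 5146 were higher. Of the neuron markers, Slc17a7 and Prox1 were lower, by −2.11 and −0.74. The log2 of the summed signal of the 7, which the brightest markers dominate, was 14.30 to 15.64 on High and 13.46 to 14.36 on Low Exploration arrays. Astrocyte markers were higher for 3 of 5, oligodendrocyte markers for 3 of 4, microglia markers for 2 of 5, choroid plexus markers for 1 of 4 and endothelial markers for 0 of 4 genes. No marker difference was 0, and no marker passed the test below when it was run without the filter. Fewer cells of a type and less RNA per cell cannot be told apart in such bulk tissue. Red blood cell markers were low, with both annotated genes under that filter.

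None of the CaM kinase probe sets passed the test between the groups. The test used the 17 probe sets whose mean log2 signal over all 10 arrays exceeded the median of 7.43 over all probe sets, and each of the 7 genes kept at least 1. With limma and Benjamini-Hochberg adjustment over all 22518 probe sets so retained, 0 of 17 passed an adjusted p of 0.05, against 0.0133% of all probe sets tested. The exact permutation test with the same adjustment could give no adjusted p below 0.0899 in these data and so could not pass for any probe set. At an unadjusted p under 0.05 there were 6 of 17 lower in High Exploration, where the share among all was 20.5%, and 1 of 17 higher, where it was 9.67%. The smallest adjusted p was 0.0690, for the brightest Camkk2 probe set.

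Among all 28 probe sets, 22 had a lower mean in High Exploration, which is 78.6% against 69.0% of the whole array. Their median difference was −0.63, beside −0.47 over all probe sets. When each array was scaled to equal hybridisation controls, the median of the 28 was −0.02 and that of the array 0.14, with 14 probe sets higher and 14 lower. The groups did not overlap for 2 of the 28, 1 of Camkk2 and 1 of Camk1d, both lower in High Exploration. That is 7.14%, where 4.84% of all probe sets were so separated. None of the 28 was separated in the opposite direction, against 1.17% of all. With arrays centred on their medians 0 of the 28 were separated in either direction, against 5.07% of all, and with arrays set to equal hybridisation controls also 0, against 4.20%.

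**Figure D1:**
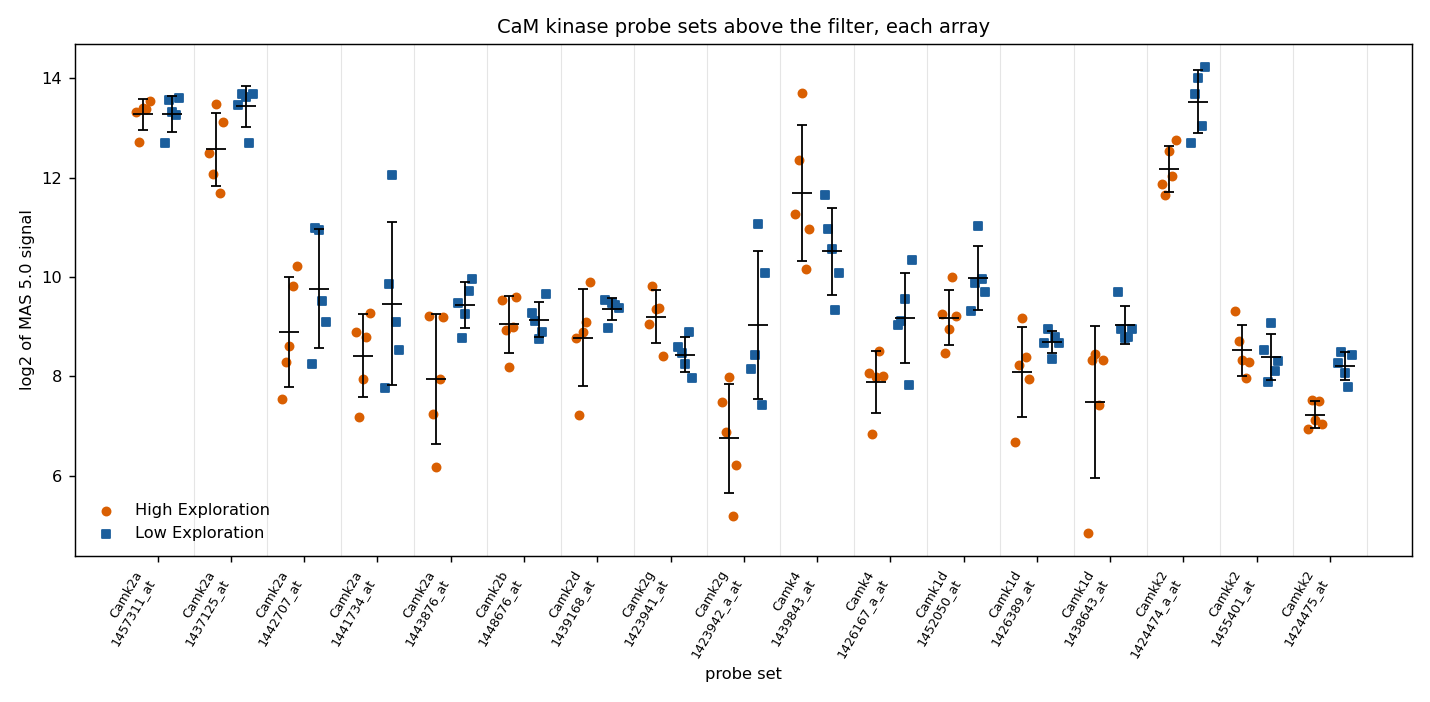
Log2 signal (vertical axis) of the 17 CaM kinase probe sets above the filter (horizontal axis) on each array, orange circles for High and blue squares for Low Exploration, with the mean and SD of each group in black. The groups overlap for all but Camkk2 1424475_at and Camk1d 1438643_at, and the Camk2a probe set 1457311_at has nearly equal group means of 13.27 and 13.28.

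Camkk2, the upstream kinase, held the probe set with the smallest p-value of the 17, in the direction of lower signal in High Exploration mice. Its brightest probe set, 1424474_a_at, read 11.86, 11.65, 12.53, 12.04 and 12.76 on High Exploration arrays 1 to 5 and 12.70, 13.69, 14.00, 13.04 and 14.22 on Low Exploration arrays 1 to 5. The groups touched at 1 point only, where High Exploration replicate 5 lay just above Low Exploration replicate 1. The difference was −1.36 (SE 0.39, 95% interval −2.20 to −0.52), a ratio of 0.389, and did not pass (limma adjusted p = 0.0690). It passed with weights that give less influence to noisier arrays (−1.51, limma adjusted p = 0.0412), a setting in which 9.71% of all probe sets passed. It kept its sign under every scaling tried, from −1.84 to −0.76. A scaling to the poly-A controls, which differed by −1.62, was not among them.

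Another Camkk2 probe set, 1424475_at, was separated between the groups. It read 6.93, 7.53, 7.12, 7.50 and 7.04 in High and 8.27, 8.49, 8.06, 7.78 and 8.43 in Low Exploration. Every High Exploration mouse thus lay below every Low Exploration mouse, with 7.53 and 7.78 as the nearest pair. The difference was −0.98 (SE 0.31, limma adjusted p = 0.0792) as deposited and −0.37 at equal hybridisation controls. The remaining Camkk2 probe sets did not follow. At 1455401_at the means were 8.52 ± 0.52 and 8.38 ± 0.46 (SD, n = 5 each), a difference of 0.14 (SE 0.37, limma adjusted p = 0.812). The probe set 1424476_at, at a mean of 5.01 and so under the filter, was 1.48 higher in High Exploration, with ranges of 4.05 to 7.18 and 2.95 to 4.99. It shares its annotated sequence tag with 1424474_a_at and 1424475_at, so probe sets designed on 1 transcript sequence gave differences of opposite sign.

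Camk1d encodes CaMKI delta, a target of CaMKK2. All 3 of its probe sets passed the filter and all had a lower mean in High Exploration as deposited, at −0.80, −0.60 and −1.55, although 1426389_at was −0.25 without High Exploration replicate 1 and turned to 0.01 at equal hybridisation controls. The brightest, 1452050_at, read 9.26, 8.47, 8.96, 9.99 and 9.21 in High and 9.31, 9.88, 11.03, 9.95 and 9.70 in Low Exploration. The groups overlapped through High Exploration replicate 4, and the difference of −0.80 did not pass (SE 0.40, limma adjusted p = 0.195). It was −0.53 without Low Exploration replicate 3 and −0.19 at equal hybridisation controls. The separated probe set, 1438643_at, read 4.85, 8.33, 8.45, 7.42 and 8.33 in High and 9.69, 8.96, 8.77, 8.78 and 8.96 in Low Exploration. High Exploration replicate 1 stood far below the rest. The difference of −1.55 (SE 0.61, limma adjusted p = 0.118) became −0.90 without that array, and the groups still did not overlap. At equal hybridisation controls it was −0.95, and the groups overlapped.

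Camk4 encodes CaMKIV, the nuclear kinase that acts on CREB. Its brightest probe set, 1439843_at, was higher in High Exploration, at 11.26, 12.35, 13.71, 10.16 and 10.96 against 11.65, 10.96, 10.57, 9.33 and 10.08 in Low Exploration. High Exploration replicate 3 read highest and the groups overlapped widely. The difference of 1.17 (SE 0.63, 95% interval −0.18 to 2.53) did not pass (limma adjusted p = 0.219). It was 0.67 without High Exploration replicate 3 and 1.78 at equal hybridisation controls. The other tested probe set, 1426167_a_at, read 8.07, 6.84, 7.98, 8.51 and 8.01 in High and 9.03, 9.11, 9.55, 7.83 and 10.34 in Low Exploration. Low Exploration replicate 4 alone lay within the High Exploration range. This probe set differed the opposite way, by −1.29 (SE 0.47, limma adjusted p = 0.102), from 9.17 ± 0.91 in Low to 7.88 ± 0.62 in High Exploration (SD, n = 5 each), and by −0.68 at equal hybridisation controls. The 3 probe sets under the filter had differences of −0.03, −0.65 and −0.61. For Camk4 the direction thus depended on the probe set.

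**Figure D2:**
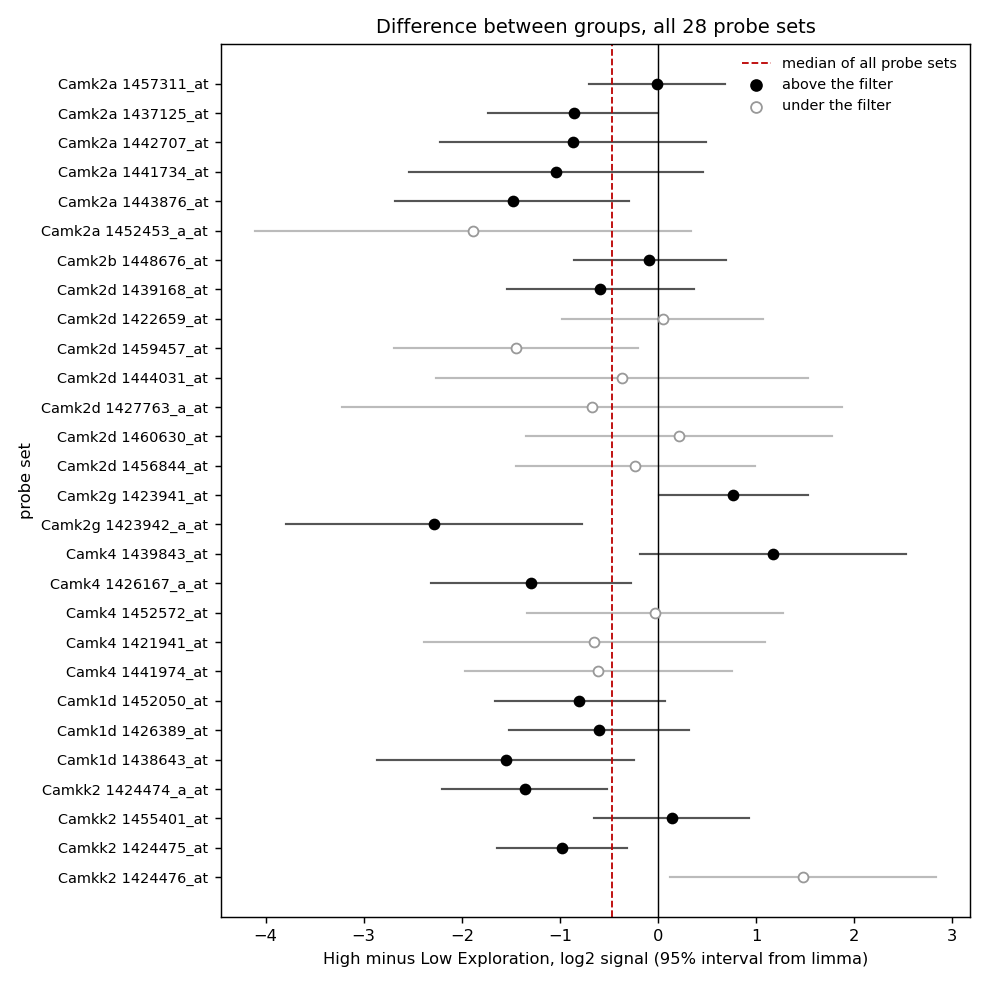
Difference between High and Low Exploration in log2 signal (horizontal axis) for the 28 probe sets (vertical axis), with 95% intervals from limma. Filled points passed the filter and open points did not. The dashed line is the median of all probe sets, −0.47, and the estimates of Camk2d, Camk2g, Camk4 and Camkk2 lie on both sides of 0.

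Camk2a encodes CaMKII alpha, the subunit typical of forebrain excitatory neurons, and its brightest probe sets lay among the top of the array, with mean signals at percentiles 98.5 and 98.3. The brightest, 1457311_at, read 13.31, 12.72, 13.40, 13.38 and 13.54 in High and 12.69, 13.56, 13.31, 13.26 and 13.60 in Low Exploration. The groups lay on top of each other. The difference was −0.01 (SE 0.32, 95% interval −0.70 to 0.68, limma adjusted p = 0.983), so these arrays leave room for a change of up to about that interval in either direction. At equal hybridisation controls it was 0.59, and after quantile normalization −0.59.

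The next Camk2a probe set, 1437125_at, gave 12.49, 12.07, 13.49, 11.69 and 13.11 against 13.47, 13.68, 13.62, 12.70 and 13.69. High Exploration replicates 1, 2 and 4 lay below every Low Exploration array, and replicates 3 and 5 lay within their range. The difference of −0.86 (SE 0.40) did not pass (limma adjusted p = 0.167), and was −0.26 at equal hybridisation controls and −1.42 after quantile normalization. The 3 dimmer probe sets of Camk2a above the filter, at means of 8.69 to 9.33, were also lower in High Exploration, by −1.48, −1.04 and −0.87, with limma adjusted p-values of 0.106, 0.313 and 0.352. The second of these, 1441734_at, was −0.40 without Low Exploration replicate 3, and the last, 1442707_at, was −0.53 to −0.57 without High Exploration replicate 1, Low Exploration replicate 2 or 3. At equal hybridisation controls the 3 were at −0.88, −0.44 and −0.26. The probe set 1443876_at had the smallest p of the 3 and read 9.21, 7.23, 6.17, 7.94 and 9.19 against 9.48, 8.76, 9.25, 9.71 and 9.96. Low Exploration replicate 2 alone kept its groups from being separate. The sixth, 1452453_a_at, had a mean of only 5.04 and ranged from 2.91 to 8.18 over the 10 arrays.

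Camk2b encodes CaMKII beta, which ties the kinase to the actin cytoskeleton. Its only probe set read 9.54, 8.93, 8.18, 9.0 and 9.60 in High and 9.27, 9.12, 8.75, 8.90 and 9.65 in Low Exploration. The groups overlapped completely, at a difference of −0.09 (SE 0.36, 95% interval −0.86 to 0.69, limma adjusted p = 0.883), which turned positive, at 0.20 to 0.52, after median centring, quantile normalization, cyclic loess or scaling to equal hybridisation controls. The ratio of alpha to beta subunits influences how CaMKII responds to calcium. Within each array the log2 ratio of the brightest Camk2a to the Camk2b probe set, in which a constant scaling cancels, averaged 4.22 ± 0.61 in High against 4.15 ± 0.46 in Low Exploration mice (SD, n = 5 each, exact permutation p = 0.833, 2-sided). The difference in this ratio was 0.08. It became −0.77 when all tested Camk2a probe sets were averaged (exact permutation p = 0.103) and −0.83 after quantile normalization (exact permutation p = 0.0556), so its sign is not settled. The ratio itself compares different probes and is not a ratio of transcripts.

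Camk2d, encoding CaMKII delta, was measured mostly at low signal, and 6 of its 7 probe sets were under the filter, with mean signals at percentiles 2.5 to 48.9 of the array. The brightest, 1439168_at, read 8.77, 7.22, 8.88, 9.09 and 9.90 in High and 9.53, 8.98, 9.48, 9.43 and 9.38 in Low Exploration. High Exploration replicate 2 was lowest and replicate 5 highest of all 10 arrays. The difference of −0.59 (SE 0.44, limma adjusted p = 0.369) was −0.20 without High Exploration replicate 2 and turned to 0.02 at equal hybridisation controls. The 6 dimmer probe sets ranged from −1.45 to 0.21, and the groups of each overlapped.

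Camk2g, encoding CaMKII gamma, which carries calcium signals from the synapse toward the nucleus, gave the sharpest disagreement between its probe sets. The brighter, 1423941_at, read 9.05, 9.82, 9.36, 9.38 and 8.40 in High and 8.58, 8.46, 8.25, 8.90 and 7.97 in Low Exploration. It was higher in 4 of 5 High Exploration mice than in any Low Exploration mouse, and replicate 5 was the exception. The difference was 0.77 (SE 0.35, limma adjusted p = 0.160). The dimmer, 1423942_a_at, read 7.48, 6.87, 7.99, 5.19 and 6.21 against 8.14, 8.43, 11.07, 7.43 and 10.08. Here Low Exploration replicates 3 and 5 stood above the others and replicate 4 reached into the High Exploration range. The difference was −2.28 (SE 0.70, 95% interval −3.79 to −0.77, limma adjusted p = 0.0762), the largest among the 17 probe sets tested. Both were annotated to the same sequence tag, and the suffix of the second marks probes shared by several transcripts of 1 gene. Both kept their signs under every scaling tried, from 0.73 to 1.38 and from −2.28 to −1.68. With the hybridisation controls as a covariate they were at 0.12 (limma adjusted p = 0.96) and −2.30 (limma adjusted p = 0.651).

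The disagreement was tested on a measure from which the scaling of an array cancels. For every gene with several probe sets above the filter, the log2 ratio of each to the brightest was formed within each array and compared between the groups over 6578 such ratios. None of the 10 ratios of CaM kinase probe sets passed, against 0.532% of all ratios (limma, adjusted p of 0.05), and 4 of 10 had an unadjusted p under 0.05, against 25.2% of all. The Camk2g ratio was −1.57, −2.96, −1.37, −4.19 and −2.19 in High and −0.44, −0.03, 2.82, −1.47 and 2.11 in Low Exploration. Only High Exploration replicate 3 and Low Exploration replicate 4 crossed over. Its difference of −3.05 (SE 0.83), a factor of 8.30 between the probe sets, had a limma adjusted p of 0.0602, and 0.0520 to 0.142 over 13 alternatives. The Camk4 ratio differed by −2.46 (SE 0.80, limma adjusted p = 0.0849) and that of Camkk2 1455401_at by 1.50 (SE 0.53, limma adjusted p = 0.102). The ratio of Camkk2 1424475_at to 1424474_a_at differed by 0.38 (SE 0.47, limma adjusted p = 0.647), so no inequality between the differences of these Camkk2 probe sets was detected.

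**Figure D3:**
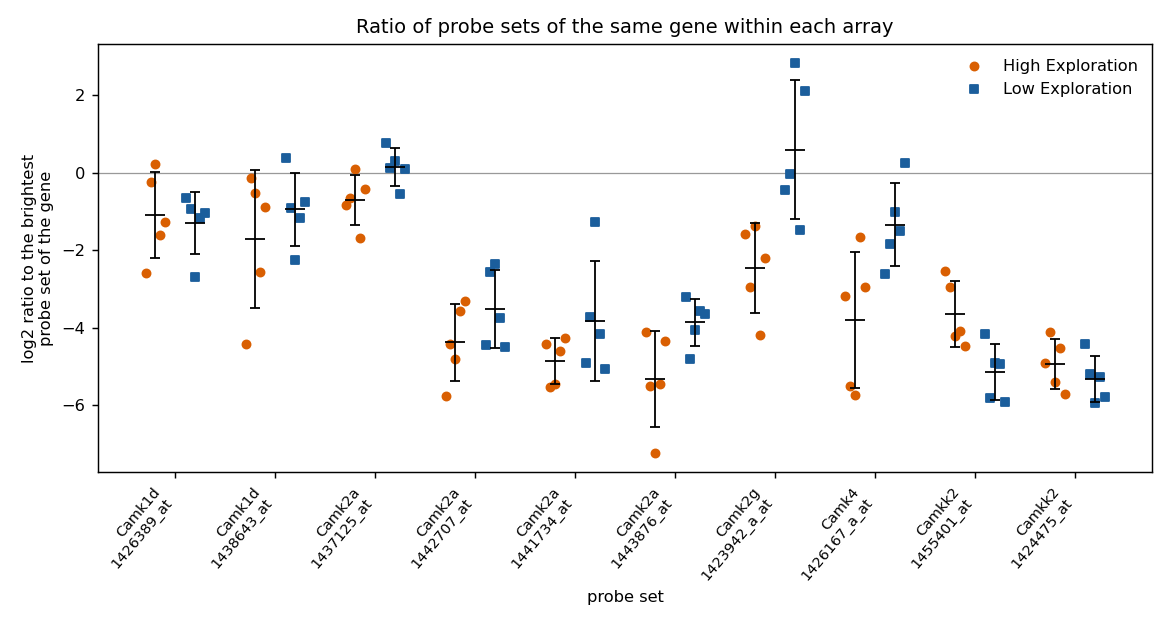
Log2 ratio of a probe set to the brightest probe set of its gene within each array (vertical axis) for the 10 CaM kinase probe sets concerned (horizontal axis), orange circles for High and blue squares for Low Exploration, with the mean and SD in black. The Camk2g ratio has the widest gap between groups, at means of −2.45 and 0.60, and no ratio separates them fully.

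Within the groups, probe sets of 1 gene also varied largely on their own. With each group centred on its mean, Pearson's r over the 10 arrays was 0.03 for Camkk2 1424474_a_at and 1424475_at, −0.31 for the Camk2g pair and −0.10 for the Camk4 pair. It was highest for Camk1d 1426389_at and 1438643_at, at 0.81, and for Camk2a 1442707_at and 1441734_at, at 0.71. At both of these Camk1d probe sets High Exploration replicate 1 was the lowest of its group, at 6.67 and 4.85. The r without that array was not computed. Camk1d 1452050_at and 1426389_at, annotated to the same sequence tag, had an r of −0.19. The brightest Camk2a probe sets reached 0.36. These values are descriptions over arrays that share a scaling, and no p was computed.

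**Figure D4:**
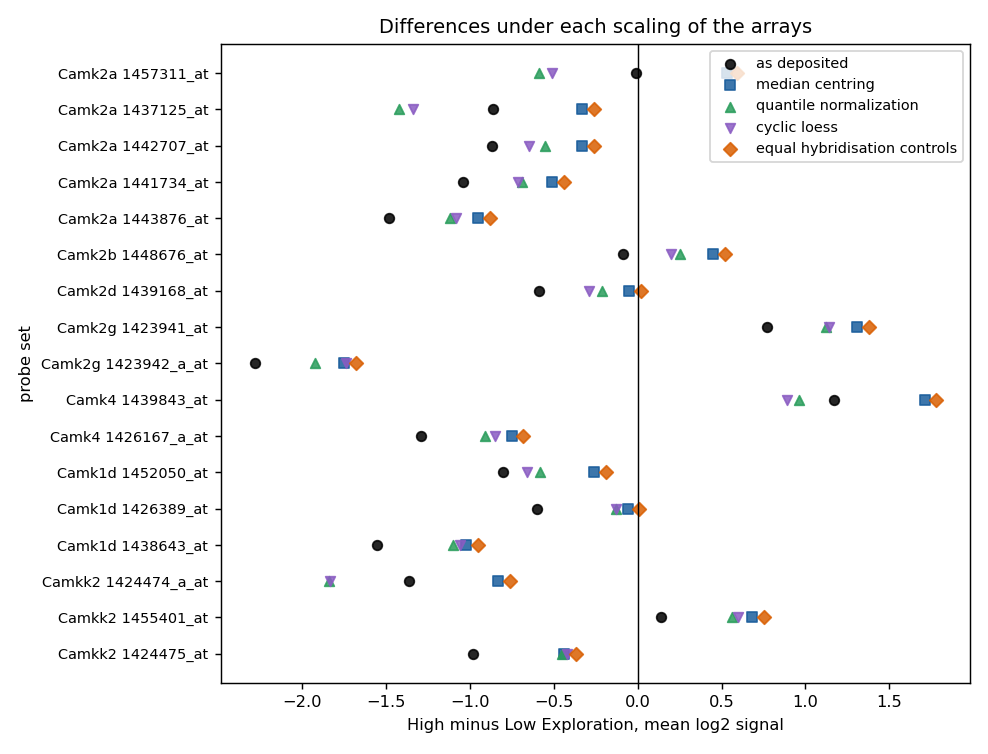
High minus Low Exploration difference in log2 signal (horizontal axis) for the 17 probe sets above the filter (vertical axis), as deposited and after 4 other scalings of the arrays, each with its own marker. The signs of 1457311_at of Camk2a, of Camk2b, of 1439168_at of Camk2d and of 1426389_at of Camk1d turn with the scaling, while the other 13 keep theirs.

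The wider pathway was read through 3 lists, with each gene represented by its brightest probe set above the filter. In 11500 genes taken in this way the median difference was −0.13, and 26.6% had an unadjusted p under 0.05. Of these genes 0 passed limma's threshold (smallest limma adjusted p = 0.0545), so no list could hold a gene that passed. The groups did not overlap for 4.31% of these genes with High Exploration below and for 2.90% with High Exploration above. Median centring and equal hybridisation controls moved the median of all these genes to 0.41 and 0.48, quantile normalization and cyclic loess to 0.11 and 0.09. Median centring and equal hybridisation controls shift every gene by the same amount, so a list keeps its place against all genes. Of 22 other genes for calmodulin, CaM kinases and their direct regulators, 12 were tested, 7 higher and 5 lower in High Exploration with a median of 0.15, and 0 passed limma's threshold. That median was 0.34 with quantile normalization and 0.28 with cyclic loess, above the median of all genes as it was in the deposited values. With median centring it was 0.69 and with equal hybridisation controls 0.76. At an unadjusted p under 0.05 there was 1 of the 12, which is 8.33%, against 26.6% of all genes. Camk2n1 and Camk2n2 encode inhibitors of CaMKII. Camk2n1 was at 12.94 ± 0.17 and 12.74 ± 0.39, a difference of 0.20 (limma adjusted p = 0.673), and Camk2n2 at 9.33 ± 0.46 and 10.07 ± 0.40, a difference of −0.74 (limma adjusted p = 0.169, SD, n = 5 each). Camk1 (CaMKI alpha), Pnck (CaMKI beta) and Camkv, a kinase-like vesicle protein, differed by −0.15, 0.11 and −0.42, and Eef2k, the calmodulin-dependent kinase of an elongation factor, by 0.99 (limma adjusted p = 0.185). The sign of Camk1, Camkv and Camk2n1 turned with the scaling. Camk1g was under the filter, and no probe set was matched to Camkk1 or Lrrc7. The 1 gene of this list whose groups did not overlap, named after its values were seen, was Ppm1e, a phosphatase of CaM kinases. That is 8.33% of the 12, against 7.21% of all genes in either direction. Ppm1e lay at 12.08 to 13.07 in High and 10.30 to 12.04 in Low Exploration (difference 1.00, limma adjusted p = 0.118).

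Proteins that bind or are controlled by calmodulin varied in both directions. Of 26 genes 24 were tested, 10 higher and 14 lower, with a median of −0.25. It was −0.18 with quantile normalization and −0.25 with cyclic loess, below the median of all genes as it was in the deposited values. With median centring it was 0.29 and with equal hybridisation controls 0.36, settings that cannot change this order. None passed, and 33.3% had an unadjusted p under 0.05, against 26.6% of all genes. Ppp3ca, a catalytic subunit of calcineurin, the calmodulin-dependent phosphatase, differed by −1.04 (SE 0.48, limma adjusted p = 0.162). The other calcineurin genes tested, chosen after their values were seen, differed the opposite way, Ppp3cb (another catalytic subunit) by 1.75 (limma adjusted p = 0.0644) and Ppp3r1 (the regulatory subunit) by 1.04 (limma adjusted p = 0.0892). Neurogranin (Nrgn), which holds calmodulin when calcium is low, differed by −0.35, Pcp4, a small calmodulin-binding protein, by 0.35, and Adcy1, an adenylyl cyclase stimulated by calmodulin, by 0.15, each with a limma adjusted p of at least 0.556 and a sign that turned with the scaling. The groups did not overlap for 3 of the 24, or 12.5%, named after their values were seen, against 7.21% of all genes in either direction. Myo5a, a myosin with calmodulin light chains, was higher in High Exploration by 1.60 (SE 0.39, limma adjusted p = 0.0619). Pde1c, a calmodulin-dependent phosphodiesterase, and Itpkb, an inositol trisphosphate kinase, were lower, at −1.39 and −0.84 (limma adjusted p = 0.0730 and 0.114).

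Of 20 substrates of CaM kinases, 16 were tested, 7 higher and 9 lower with a median of −0.27. It was −0.62 with quantile normalization and −0.66 with cyclic loess, below the median of all genes as it was in the deposited values. With median centring it was 0.27 and with equal hybridisation controls 0.34, settings that cannot change this order. None passed limma's threshold. At an unadjusted p under 0.05 there were 9 of the 16, 3 higher and 6 lower, or 56.2%, against 26.6% of all genes. Creb1, the transcription factor phosphorylated by CaMKIV, read 10.46 ± 0.62 in High against 11.26 ± 0.46 in Low Exploration mice (SD, n = 5 each, limma adjusted p = 0.176). Tiam1, an activator of Rac that CaMKII phosphorylates, was the 1 gene of the 16 whose groups did not overlap, named after its values were seen. That is 6.25%, against 7.21% of all genes in either direction. Tiam1 read 7.56 to 8.89 in High and 9.23 to 9.98 in Low Exploration, a difference of −1.26 (SE 0.37, limma adjusted p = 0.0711).

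**Figure D5:**
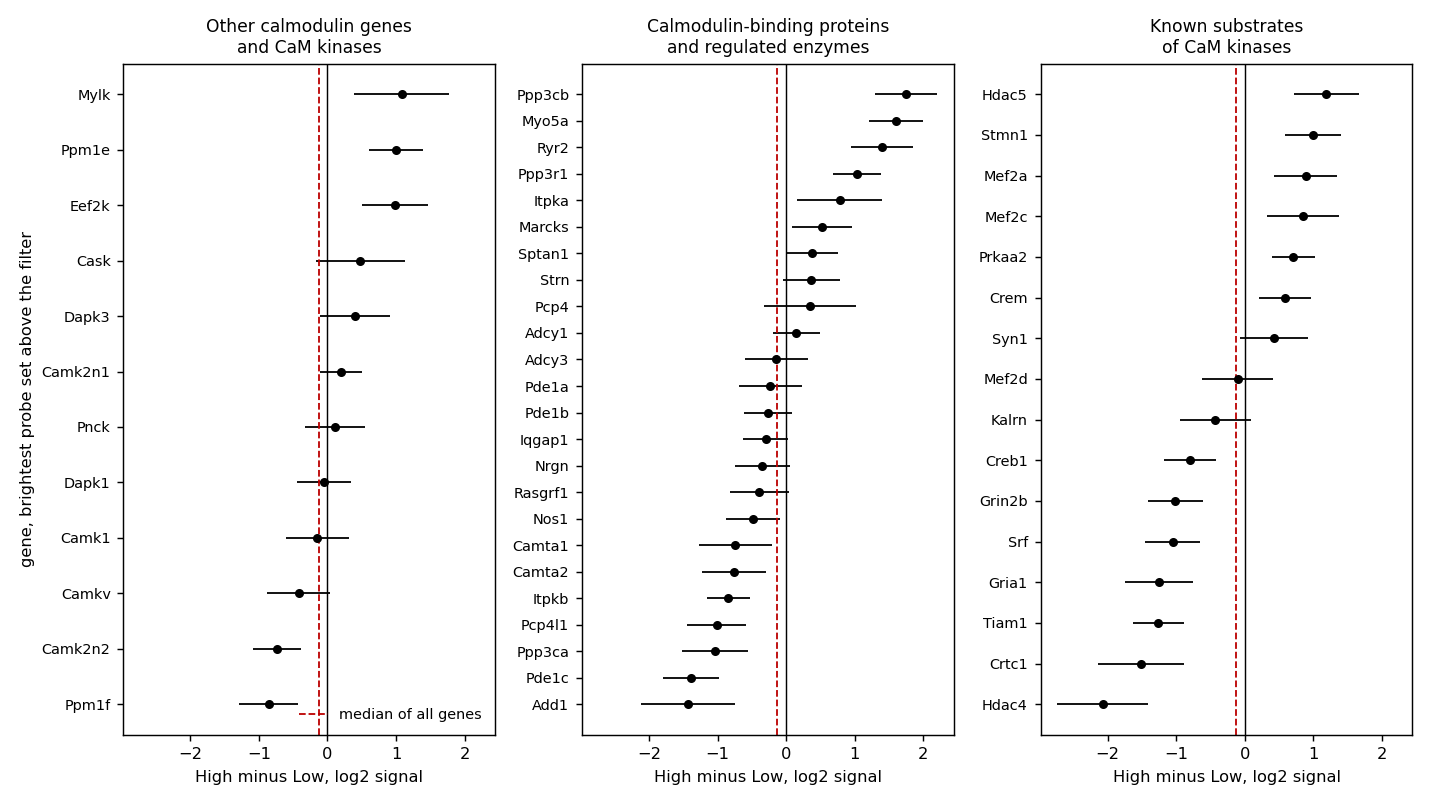
Difference between High and Low Exploration in log2 signal (horizontal axis) with its SE for the brightest probe set of each gene in the 3 pathway lists (vertical axis). The dashed line is the median of 11500 genes, −0.13, and each list holds genes on both sides of it, from Hdac4 at −2.07 to Ppp3cb at 1.75.

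The patterns most like those of Camk2a and Camkk2 were sought among 18073 and 18075 tested probe sets of other single genes, by Pearson's r over the 10 arrays with each group centred on its mean. For Camk2a 1457311_at they were those of Scpep1 (r = 0.975), Cox7a2l (0.968) and Kif5c (0.964), with Spearman's rho of 0.891, 0.903 and 0.867. For Camkk2 1424474_a_at they were Luc7l3 (r = 0.980), Sgf29 (0.977) and Lyl1 (0.959), with rho of 0.976, 0.952 and 0.964. These are the highest of many values over arrays that share 1 scaling each, given as a description without a p.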

How the data were processed

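Total RNA of whole hippocampus was purified on Qiagen RNA/DNA columns per the labels of all 10 samples (the study's methods name columns or Trizol, and a change from Trizol to columns in its handling experiment), biotin-labelled and hybridised to 1-colour Affymetrix mouse whole-genome arrays. Amplification is given as a double round in the study's methods and as the standard protocol in the labels. The authors summarised each array with MAS 5.0, and the deposited values are linear signal intensities, scaled by a constant to a trimmed mean of 500 per array. Differences in the shape of the distribution between arrays were kept. No detection calls or scan batches were used here, and the number of arrays limits the precision.

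The 64 control probe sets were set aside. In the platform annotation, 34958 probe sets had 1 symbol, 932 had several and 9211 had none, and 34754 matched the RefSeq table (GRCm38.p6) with 0 changed symbols. Log2 signals were fitted with limma 3.58.1 in R 4.3.3 (lmFit, eBayes) over the 22518 probe sets with a mean above 7.43 (a signal of 172.5). Probe sets under the filter took their values from a fit without it. Single measures were compared by exact 2-sided permutation. In simulated data for the High minus Low comparison over 22518 probe sets, limma recovered 2, 27, 42 and 45 of 50 changes of 1, 2, 3 and 4 on the log2 scale, with 7 false calls. The simulated noise was normal and independent, with each probe set's own SD and no array-wide difference between the groups. The real arrays differed in array-wide readings, so these counts hold for the simulated setting only.

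The members and lists were chosen with earlier results of these data known. Every member probe set was accounted for, and the brightest of each gene and any that passed or was separated were given array by array. Pathway genes were named from a list set in advance of these fits or where groups did not overlap. Ppp3cb, Ppp3r1 and, as the lowest value, Hdac4 were added after their values were seen. Likeness was sought for Camk2a and Camkk2 (Calm2, also listed, had no matched probe set). Alternatives covered scaling, a pseudocount of 23, the filter, array weights, an intensity trend, a covariate, averaging of probe sets, a permutation test and leaving out each array.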

Additional observations from a re-analysis of the deposited data

Results flagged for a closer look

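In each group of 5 arrays, the gap of the highest or lowest reading to its neighbour was set against the range of the group (Dixon's criterion, 0.71). Of 56 groups, over 28 probe sets, 9 were marked, where about 1 in 20 would be for independent, normally distributed readings. The share marked among all probe sets was not computed, so the count is not read as particular to these genes. For Camk1d 1438643_at, High Exploration replicate 1 read 4.85 against 7.42 to 8.45 on the other arrays of its group, and Low Exploration replicate 1 read 9.69 against 8.77 to 8.96. For Camk2a, High Exploration replicate 2 read 12.72 at 1457311_at (others 13.31 to 13.54), Low Exploration replicate 4 read 12.70 at 1437125_at (others 13.47 to 13.69), and High Exploration replicate 5 read 7.44 at 1452453_a_at (others 2.91 to 4.15). For Camk2d, Low Exploration replicate 2 read 8.98 at 1439168_at (others 9.38 to 9.53) and 1.86 at 1427763_a_at (others 5.89 to 7.42), Low Exploration replicate 5 read 3.60 at 1444031_at (others 6.95 to 7.96), and High Exploration replicate 2 read 7.48 at 1460630_at (others 3.43 to 4.39). The last 3 of these Camk2d probe sets and Camk2a 1452453_a_at were under the filter.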

How the results depend on the processing

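The count of CaM kinase probe sets passing limma was 0 as deposited and under every alternative run except array weights, where it was 1 (Camkk2 1424474_a_at, −1.51, limma adjusted p = 0.0412). Of all probe sets, 9.71% passed with array weights, 4.63% without High Exploration replicate 5, 4.02% with median centring and 1.63% with the pseudocount. In the other limma fits of single probe sets at most 0.0755% of all passed. The exact permutation test could not have passed for any probe set. Over its 19 alternatives Camkk2 1424474_a_at ranged from −1.84 to −0.57 and its limma adjusted p from 0.0412 to 0.786. No ratio between CaM kinase probe sets of 1 gene passed under any of 13 alternatives. No paired analysis was possible because the labels give no replicate number shared between the groups.

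The median difference of the 28 probe sets, −0.63, was −0.09 with median centring, −0.17 with quantile normalization, −0.21 with cyclic loess, −0.02 at equal hybridisation controls, −0.40 with the hybridisation controls as a covariate and −0.86 above the filter. Without single arrays it ranged from −0.81 to −0.38, the latter without Low Exploration replicate 3. The count of separated probe sets, 2, was 0 with median centring and at equal hybridisation controls and 1 with quantile normalization or cyclic loess. Of all probe sets, 5.07%, 4.20%, 3.77% and 3.84% were separated in these settings, in that order. Without single arrays the count ranged from 2 to 4. Where the count was 2, 6.72% to 8.84% of all probe sets were separated. The count was 3 without High Exploration replicate 4, Low Exploration replicate 1 or 2, where 8.45%, 9.96% and 9.11% of all probe sets were separated. It was 4 without High Exploration replicate 5 (1 of them, Camk2g 1423941_at, with High Exploration above) or Low Exploration replicate 4, where 10.4% and 8.56% were. The difference in the Camk2a to Camk2b ratio, 0.08, was −0.77 with Camk2a probe sets averaged and −0.83 with quantile normalization. Without single arrays it ranged from −0.17 (without High Exploration replicate 3) to 0.19, and was −0.10 without Low Exploration replicate 1. The cause of these shifts was not tested.

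Of 323 values for the 17 single probe sets, 21 changed sign, in 7 probe sets. Camk2a 1457311_at turned to 0.53 with median centring, 0.59 at equal hybridisation controls and 0.49 with the covariate, and ranged from −0.16 to 0.13 without single arrays. Camk2b turned to 0.00 with array weights, 0.20 with cyclic loess, 0.25 with quantile normalization, 0.45 with median centring, 0.52 at equal hybridisation controls and 0.31 with the covariate, and ranged from −0.23 to 0.13 without single arrays. At equal hybridisation controls Camk1d 1426389_at was 0.01 and Camk2d 1439168_at 0.02. With the covariate, Camk2d 1439168_at was 0.36, Camk2a 1442707_at 0.01, Camk4 1439843_at −0.16 and Camkk2 1455401_at −0.20. Without single arrays Camkk2 1455401_at ranged from −0.06 to 0.32.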
